A study of Homo sapiens with 18 samples.

Results

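The genes described here are 39 subunits of the Polycomb repressive complexes PRC1 and PRC2 and the enzymes that remove their histone marks, taken by symbol from a count table of 61552 genes. They were measured by RNA sequencing in HCT116, a human colorectal cancer cell line, in which the gene for IκBα (NFKBIA) carried a knock-in. In all lines the knock-in construct is called IκBα-SOF in the labels, so the WT line is itself an edited line, and it was compared with an N108 mutant line and with an M3 mutant line in which residues H84, E85 and E86 were changed to alanine. Cells of each line were exposed to human TNFα at 0.1 µg/mL for 40 min or were left untreated. The 6 groups, N108 with TNF, N108 untreated, M3 with TNF, M3 untreated, WT with TNF and WT untreated, had 3 libraries each, 18 in all. The labels name no clones, so the effect of a mutation and the history of the line that carries it cannot be told apart. Nothing in the labels ties a replicate to a culture of its own, so the p-values below measure the spread between libraries, which may be technical. All 39 genes passed the filter on low counts and were among the 19038 genes tested, with 366 to 40549 counts per library.

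Polycomb proteins keep developmental genes silent. PRC2 methylates lysine 27 of histone H3 through EZH1 or EZH2, held by EED and SUZ12, and accessory subunits steer it to CpG-rich DNA. PRC1 ubiquitylates histone H2A through RNF2 or RING1 paired with a PCGF protein; canonical PRC1 reads the PRC2 mark through CBX proteins and compacts chromatin through PHC proteins, whereas variant PRC1 uses RYBP or YAF2. The deubiquitylase BAP1 with an ASXL partner (PR-DUB) and the demethylases KDM6A and KDM6B take the marks away. IκBα is best known for holding NF-κB in the cytoplasm until TNF signalling has it degraded, and a nuclear pool has been described at Polycomb target chromatin.

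Libraries held 49021907 to 76947190 counts, and libraries of a group differed by more than counting noise. The edited gene, NFKBIA, averaged 30.3 ± 1.8 CPM (counts scaled to library size with TMM factors) in untreated N108, 77.9 ± 1.2 CPM in untreated M3 and 91.6 ± 4.6 CPM in untreated WT (mean ± SD, n = 3), and it was 9.12-fold, 12.4-fold and 8.28-fold higher with TNF in N108, M3 and WT. Its transcript level checks the treatment and not the residues changed. Of 8 epithelial markers, 7 passed the count filter and VIL1 was near 0. The summed level of the list was 5036 to 5309 CPM in untreated N108, 4298 to 4621 CPM in untreated M3 and 6544 to 6873 CPM in untreated WT. Single markers went both ways against untreated WT at an adjusted p under 0.05. In N108 1 was higher and 5 lower (85.7% against 42.4% of all genes). In M3 2 were higher and 5 lower (100% against 52.9%). Markers of other cell types summed to 20.6 to 38.7 CPM over the 18 libraries, mostly COL1A1, with the leukocyte gene PTPRC at 0 in 5 of 6 groups. The part that these differences have in the results below was not tested. In bulk RNA, fewer cells of a type and less RNA per cell cannot be told apart. Libraries also differed in how counts followed the GC content of transcripts, most within a group in N108 with TNF replicates 2 and 3 and untreated M3 replicate 3.

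Per kilobase of exon, the levels of the 39 genes covered a range from 0.815 CPM per kb for YAF2 to 47.3 CPM per kb for CBX6, with a median of 8.11 over the mean of all 18 libraries. The other high genes were RBBP4, a histone-binding subunit that PRC2 shares with other complexes, at 39, PHC2, a polymerising subunit of canonical PRC1, at 37.5, and RING1 at 33.5 CPM per kb. Of the alternative catalytic subunits of PRC2, EZH2 stood at 17.7 and EZH1 at 4.89 CPM per kb, and the E3 ligase RING1 was above its paralog RNF2 at 10.9 CPM per kb. Among the chromodomain proteins CBX6 was far above CBX2 (13.8), CBX8 (9.50) and CBX7 (5.11 CPM per kb), and PHC2 was far above PHC3 (2.93) and PHC1 (2.03 CPM per kb). BMI1 and PCGF2, which both form canonical PRC1, stood at 6.86 and 16.3 CPM per kb. Exons of BMI1 overlap the readthrough gene COMMD3-BMI1 on the same strand, and those of PCGF2, PHC1, RBBP4 and CBX7 overlap genes on the opposite strand over 32.7%, 18.14%, 18.01% and 17.93% of their length, so these levels are uncertain, because no source used here says whether counting used strand. SUZ12, RBBP4 and PHC1 also have near-identical pseudogene copies whose reads the counting could split. The length used joins all annotated exons of a gene, 10839 bases for YAF2 and 16919 for PHC3, and may exceed the transcripts present. Without that division, SCML2 (8.30 CPM) was below YAF2 (8.84 CPM), and PHC3 averaged 49.6 CPM against 187 CPM for PHC2.

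**Figure D1:**
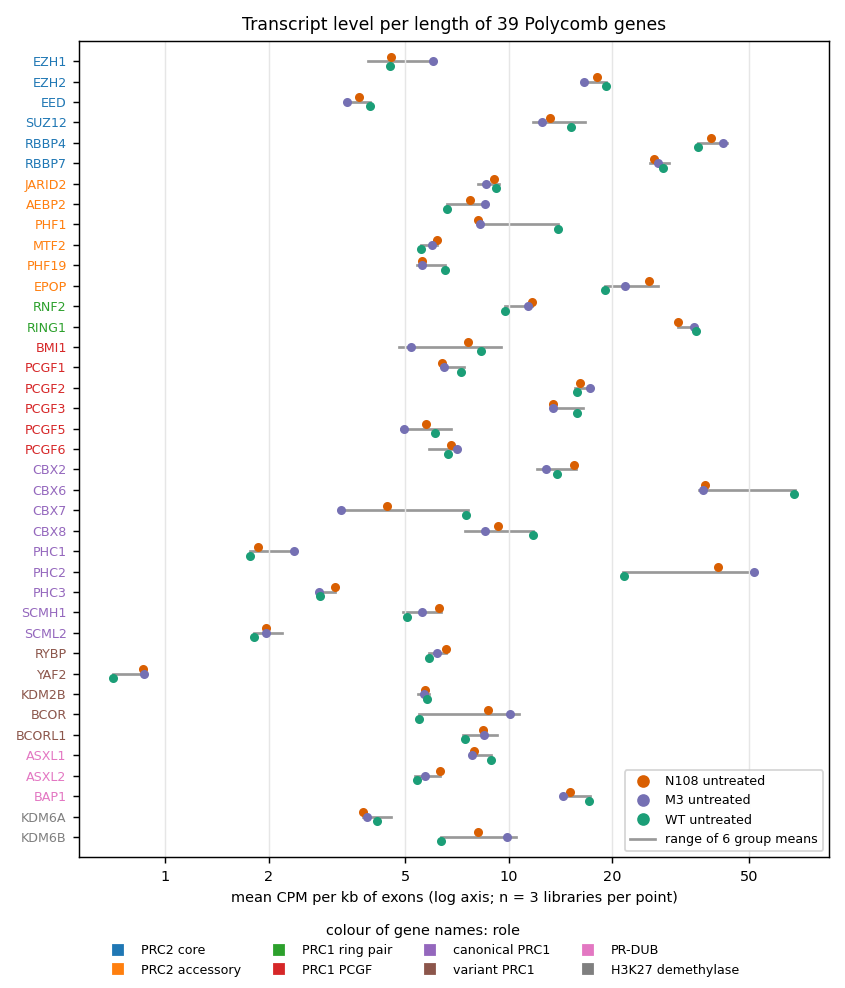
Mean level of each of the 39 genes in CPM per kb of exons on a log axis, with points for untreated N108, M3 and WT (n = 3 libraries each) and a line over the range of the 6 group means. PHC2, CBX6, CBX7, PHF1, BCOR and KDM6B have the points of the mutants set apart from WT, and most other genes have the points close together.

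Without TNF, both mutant lines differed from WT most in subunits of canonical PRC1. PHC2 was 1.88-fold higher in N108 and 2.4-fold higher in M3 than in WT, and CBX6 and CBX7 were at 0.552 and 0.585 times the WT level in N108 and 0.544 and 0.431 times in M3. BCOR (a scaffold of variant PRC1) and KDM6B were also higher in both mutants, and CBX8 and PHF1 (a PRC2 subunit that binds the H3K36 methyl mark) were lower. EZH2 was at 0.938 times the WT level in N108, not called, and 0.863 times in M3. In N108 against WT, 24 of the 39 genes were called at an adjusted p under 0.05 (edgeR quasi-likelihood test, Benjamini-Hochberg over all genes), 13 higher and 11 lower, which is 61.5% where 42.4% of all genes tested were called (20.9% higher and 21.6% lower). In M3 against WT, 26 were called, 13 higher and 13 lower, which is 66.7% against 52.9% of all genes tested (26.1% higher and 26.8% lower). The background is therefore high, and most of the differences of the members were small. The members had at least 366 counts in every library, whereas the background includes genes close to the count filter. The part that count level has in these shares, and in those of the lists below, was not tested. The median size of the log2 fold change was 0.18 for the 39 genes and 0.21 for all genes in N108, and 0.22 against 0.28 in M3. Only 5 of the calls in N108 and 7 in M3 exceeded 1.5-fold. With the GC trend removed the split in N108 was 10 higher and 16 lower. Both comparisons share the WT libraries, so their values are set side by side below and are not independent.

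**Figure D2:**
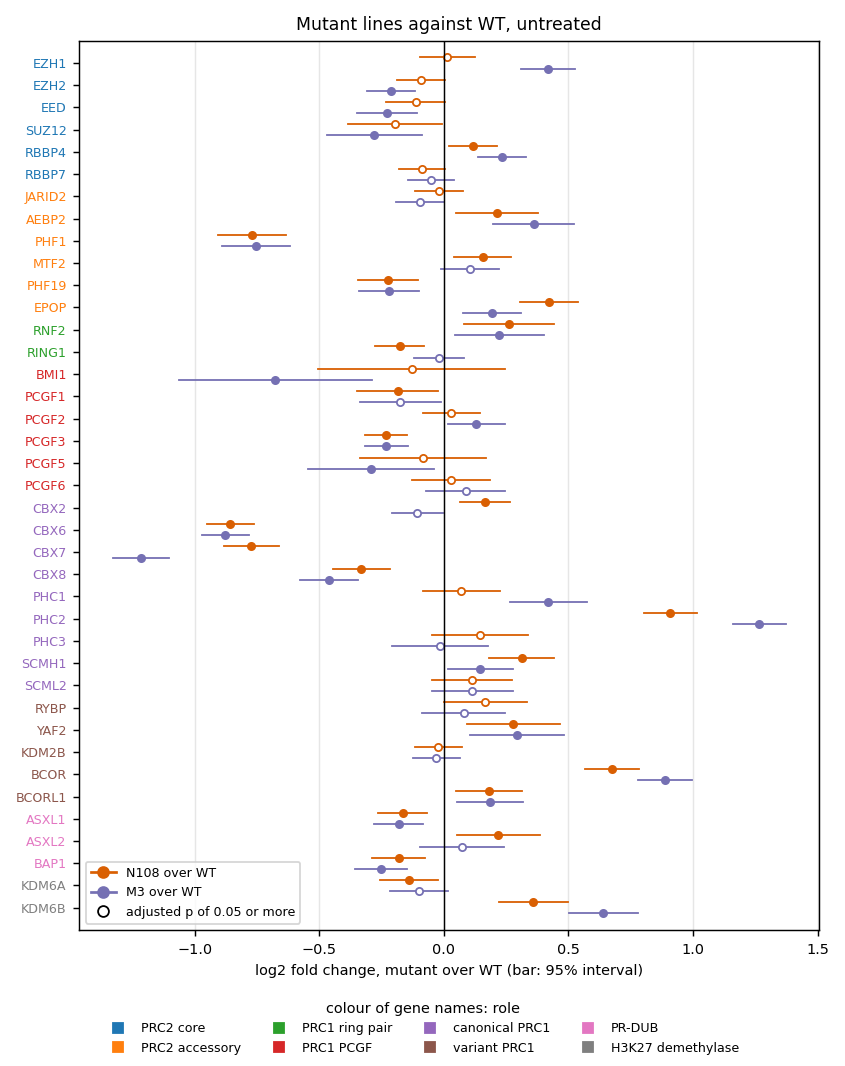
Log2 fold change of each of the 39 genes, N108 over WT and M3 over WT, untreated, with bars for 95% intervals (3 libraries a group). Filled points had an adjusted p under 0.05; PHC2 lies farthest to the right in both mutants, and CBX6 and CBX7 lie farthest to the left.

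Among the core genes of PRC2, EZH1, the catalytic subunit of resting cells, had 31.6, 31.3 and 32.4 CPM in untreated N108, 43.7, 40.9 and 41.4 CPM in untreated M3 and 31.9, 30.8 and 31.7 CPM in untreated WT. M3 stood above both other lines in every library, and N108 overlapped WT. EZH1 was higher in M3 (log2 fold change 0.42, SE 0.05, adjusted p = 6.1e-08) and was not called in N108 (0.014, adjusted p = 0.85, 95% interval -0.095 to 0.12). EZH2, the catalytic subunit of dividing cells, had 77.3, 83.1 and 84.2 CPM in untreated N108, 74.5, 75 and 75.5 CPM in untreated M3 and 85.4, 86.4 and 89.1 CPM in untreated WT. The 3 WT libraries lay above all mutant libraries, but only M3 was called (-0.21, SE 0.045, adjusted p = 2.3e-04), and for N108 the interval of the log2 fold change was -0.19 to 0.0048 (adjusted p = 0.099). EED, which binds the trimethyl mark and stimulates the enzyme, had 24.9, 26.1 and 26 CPM in untreated N108, 24.9, 24 and 22.1 CPM in untreated M3 and 27.8, 28.4 and 27 CPM in untreated WT. It fell in M3 (-0.23, SE 0.055, adjusted p = 9.8e-04), and in N108, where WT was again above each library, the difference was not called (-0.11, adjusted p = 0.099).

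SUZ12, the scaffold of PRC2, had 88.6, 92.4 and 78.2 CPM in untreated N108, 87.2, 88.8 and 68.9 CPM in untreated M3 and 103, 97 and 96.8 CPM in untreated WT. All 6 mutant libraries lay below WT, and the third replicate of each mutant was the lowest. The fall in M3 passed the test (-0.28, SE 0.087, adjusted p = 0.012) and that in N108 did not (-0.20, adjusted p = 0.078). Of the shared histone-binding subunits, RBBP4 was higher in N108 (0.12, adjusted p = 0.037) and in M3 (0.23, adjusted p = 7.1e-05), and RBBP7 was called in neither (-0.089, adjusted p = 0.092 in N108 and -0.051, adjusted p = 0.33 in M3). Without 1 library the calls that ended were, in N108, RBBP4 without N108 untreated replicates 2 or 3 or WT untreated replicates 1, 2 or 3 (highest adjusted p = 0.14) and, in M3, SUZ12 without M3 untreated replicate 3 (adjusted p = 0.053). Of the 6 core genes, N108 had 1 higher and 0 lower, or 16.7% against 42.4% of all genes. M3 had 2 higher and 3 lower, or 83.3% against 52.9%. These shares rest on 6 genes, and a call in 1 mutant only does not show that the mutants differ.

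Among the accessory subunits of PRC2, PHF1 had 29.5, 28 and 30.3 CPM in untreated N108, 29, 27.8 and 31.9 CPM in untreated M3 and 49, 49.3 and 51.3 CPM in untreated WT. Mutant and WT libraries were well apart and the mutants overlapped each other. PHF1 was 0.586 times the WT level in N108 (-0.77, SE 0.063, adjusted p = 7.5e-11) and 0.593 times in M3 (-0.75, SE 0.063, adjusted p = 6.9e-11). Its Polycomb-like paralogs moved less: PHF19 fell in N108 (-0.22, adjusted p = 0.0017) and in M3 (-0.22, adjusted p = 0.0015), and MTF2 was higher in N108 (0.16, adjusted p = 0.018) and not called in M3 (0.10, adjusted p = 0.1). EPOP, which joins PRC2 to elongin BC, had 97.2, 92.8 and 95.3 CPM in untreated N108, 78.2, 79.4 and 85.9 CPM in untreated M3 and 68, 69 and 76 CPM in untreated WT. The 3 groups did not overlap, with N108 highest. EPOP was higher in N108 (0.42, SE 0.053, adjusted p = 2.6e-07) and in M3 (0.19, SE 0.053, adjusted p = 0.0031). AEBP2, which belongs to the alternative PRC2.2 assembly, was higher in both (log2 fold change 0.21 in N108 and 0.36 in M3), and its partner JARID2 was called in neither (-0.021 and -0.095). Calls in N108 that ended when 1 library was left out were AEBP2 without N108 untreated replicates 1 or 2 or WT untreated replicate 3 (highest adjusted p = 0.14) and MTF2 without N108 untreated replicate 2 or WT untreated replicate 2 (highest adjusted p = 0.12), and a call in M3 was gained for MTF2 without M3 untreated replicate 3 (adjusted p = 0.011).

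For the E3 ligases of PRC1, RNF2 (RING1B) had 48.8, 50.9 and 43 CPM in untreated N108, 47.1, 51.7 and 40.1 CPM in untreated M3 and 42.2, 39.5 and 37.1 CPM in untreated WT. N108 lay above WT in every library, while the lowest M3 library, replicate 3, fell among the WT values. RNF2 was higher in N108 (0.26, SE 0.083, adjusted p = 0.014) and in M3 (0.22, SE 0.083, adjusted p = 0.029). RING1 had 56.5, 55.6 and 57 CPM in untreated N108, 63.3, 61 and 64.2 CPM in untreated M3 and 64.1, 63.3 and 63.8 CPM in untreated WT. N108 was below both other lines in every library, and M3 overlapped WT. The call of RNF2 in N108 ended without N108 untreated replicate 2 or WT untreated replicate 3 (highest adjusted p = 0.078), and that in M3 ended without M3 untreated replicates 1 or 2 or WT untreated replicates 2 or 3 (highest adjusted p = 0.17). The fall of RING1 was called in N108 (-0.18, SE 0.046, adjusted p = 0.0024) and not in M3 (-0.02, adjusted p = 0.74).

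BMI1 (PCGF4), the PCGF partner of canonical PRC1, had 35.5, 35.8 and 26.2 CPM in untreated N108, 24.8, 26 and 15.9 CPM in untreated M3 and 40.9, 34.5 and 30.9 CPM in untreated WT. All M3 libraries lay below WT, replicate 3 farthest, and N108 overlapped WT. The spread of BMI1 was wide, with a fall in M3 (-0.68, SE 0.18, adjusted p = 0.0057) and an interval in N108 of -0.51 to 0.25 (-0.13, adjusted p = 0.59). PCGF3, of a variant PRC1 complex, fell in N108 (-0.23, adjusted p = 1.9e-05) and in M3 (-0.23, adjusted p = 1.5e-05). Its close relative PCGF5 fell in M3 (-0.29, adjusted p = 0.047) and was not called in N108 (-0.084, adjusted p = 0.6). PCGF2 (MEL18), the paralog of BMI1, was higher in M3 (0.13, adjusted p = 0.039), PCGF1 was lower in N108 (-0.19, adjusted p = 0.047), and PCGF6 was called in neither mutant (0.029 and 0.088). Left-out libraries ended the call of PCGF1 without N108 untreated replicates 2 or 3 or WT untreated replicates 1 or 2 (highest adjusted p = 0.19) in N108 and the calls of PCGF2 without M3 untreated replicate 3 or WT untreated replicates 1 or 3 (highest adjusted p = 0.2) and PCGF5 without M3 untreated replicates 1 or 3 or WT untreated replicates 1 or 2 (highest adjusted p = 0.19) in M3, where a call was gained for PCGF1 without M3 untreated replicate 3 or WT untreated replicate 3 (lowest adjusted p = 0.027).

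The largest differences were in canonical PRC1. PHC2 had 207, 198 and 199 CPM in untreated N108, 251, 257 and 265 CPM in untreated M3 and 105, 107 and 109.8 CPM in untreated WT. The 3 groups did not overlap, and M3 was the highest. PHC2 was 1.88-fold higher in N108 (0.91, SE 0.049, adjusted p = 8.8e-15) and 2.4-fold higher in M3 (1.27, SE 0.049, adjusted p = 3.5e-18). Its paralog PHC1 was higher in M3 (0.42, adjusted p = 1.3e-05) and not called in N108 (0.07, adjusted p = 0.46), and PHC3 was called in neither (0.14 in N108 and -0.015 in M3). Per length, PHC2 was the most abundant of the 3 paralogs in every group, at 40.5 CPM per kb in untreated N108, 51.8 in untreated M3 and 21.6 in untreated WT.

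CBX6 had 308, 286 and 301 CPM in untreated N108, 286, 298 and 299 CPM in untreated M3 and 522, 539 and 561 CPM in untreated WT. Every mutant library lay well below WT, and the mutants overlapped each other. CBX6 was 0.552 times the WT level in N108 (-0.86, SE 0.043, adjusted p = 2.6e-15) and 0.544 times in M3 (-0.88, SE 0.043, adjusted p = 9.2e-16). CBX7, the chromodomain protein that binds the PRC2 mark in stem cells and represses the CDKN2A locus, had 34.7, 31.1 and 32.8 CPM in untreated N108, 23.2, 24.4 and 24.9 CPM in untreated M3 and 55.5, 54.6 and 58.4 CPM in untreated WT. The 3 groups were fully apart, M3 lowest. CBX7 fell to 0.585 times the WT level in N108 (-0.77, SE 0.051, adjusted p = 8.4e-13) and 0.431 times in M3 (-1.22, SE 0.052, adjusted p = 3.5e-17). CBX8 was lower by less, in N108 (-0.33, adjusted p = 8.4e-06) and in M3 (-0.46, adjusted p = 2.9e-08), and CBX2 went the other way in N108 (0.17, adjusted p = 0.005) and was not called in M3 (-0.11, adjusted p = 0.058). Of the SCM proteins, which bind PHC through their SAM domains, SCMH1 was higher in N108 (0.31, adjusted p = 1.1e-04) and in M3 (0.15, adjusted p = 0.043), and SCML2 was called in neither (0.11 and 0.11). The call of SCMH1 in M3 ended without M3 untreated replicates 2 or 3 or WT untreated replicates 1 or 3 (highest adjusted p = 0.21), and a call in M3 was gained for CBX2 without M3 untreated replicate 3 (adjusted p = 0.037).

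**Figure D3:**
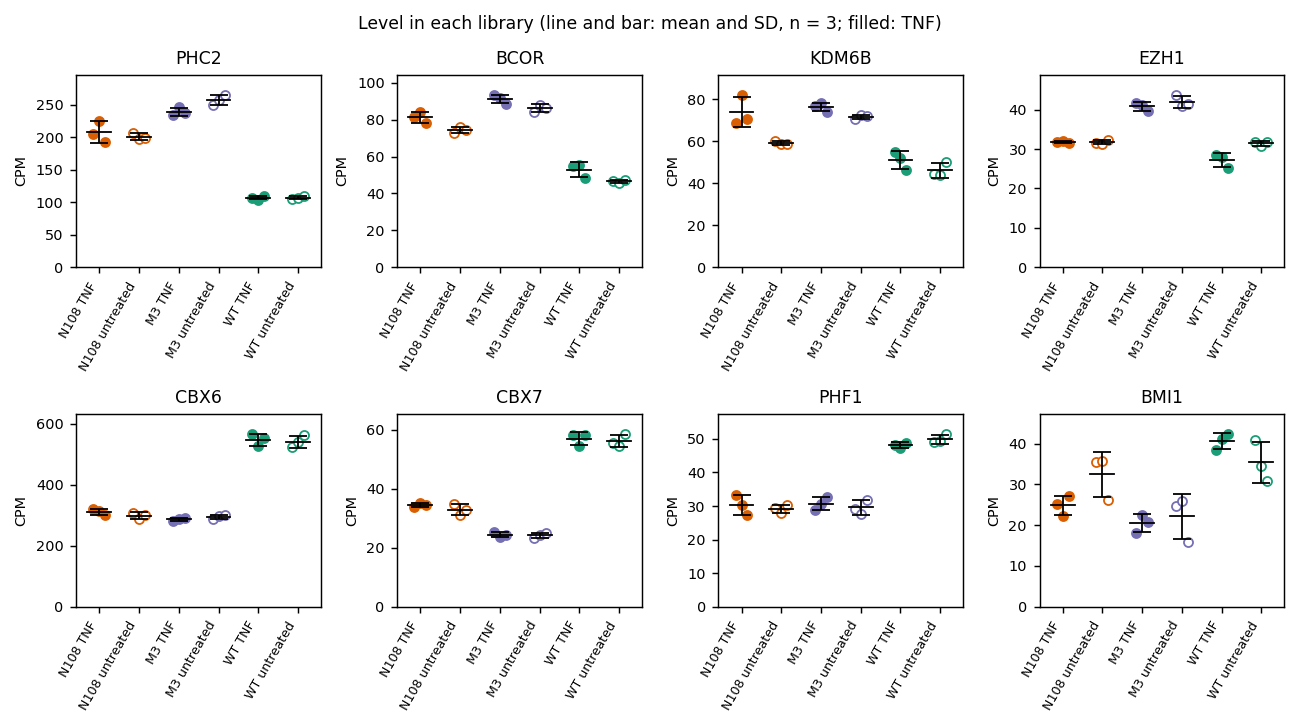
CPM of 8 genes in each of the 18 libraries, grouped by line and treatment, with mean and SD (n = 3); filled points had TNF. PHC2, BCOR and KDM6B are higher in both mutants than in WT, CBX6, CBX7 and PHF1 are lower, and treatment moves none of the 8 as far as PHC2 differs between lines.

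Promoter sequences of PHC2, CBX7, PHF1 and KDM6B are shown as examples of members called in both lines. CBX6 and BCOR were also called in both and are not printed. RefSeq (GRCh38.p14) gave 55 start windows for 35 of the 39 genes, all but CBX2, CBX8, EPOP and BAP1. The 250 bases before the start are printed 5′ to 3′ in the direction of transcription, with capitals on the GC box (GGGCGG on either strand) in PHC2, CBX7 and KDM6B and on the κB motif in PHF1. In GENCODE 29 coordinates (hg38) PHC2 spans chromosome 1, 33323623 to 33431052, CBX7 chromosome 22, 39120167 to 39152674, PHF1 chromosome 6, 33410399 to 33416453 and KDM6B chromosome 17, 7839904 to 7854796. The windows shown are chr1:33431096-33431345 (minus strand) for PHC2, chr22:39152681-39152930 (minus strand) for CBX7, chr6:33410764-33411013 (plus strand) for PHF1 and chr17:7833967-7834216 (plus strand) for KDM6B.
PHC2: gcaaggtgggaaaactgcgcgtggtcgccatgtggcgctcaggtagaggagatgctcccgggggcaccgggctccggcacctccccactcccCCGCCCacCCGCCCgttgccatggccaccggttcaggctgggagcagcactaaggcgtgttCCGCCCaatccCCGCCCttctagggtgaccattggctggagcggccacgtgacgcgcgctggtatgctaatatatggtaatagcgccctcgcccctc
CBX7: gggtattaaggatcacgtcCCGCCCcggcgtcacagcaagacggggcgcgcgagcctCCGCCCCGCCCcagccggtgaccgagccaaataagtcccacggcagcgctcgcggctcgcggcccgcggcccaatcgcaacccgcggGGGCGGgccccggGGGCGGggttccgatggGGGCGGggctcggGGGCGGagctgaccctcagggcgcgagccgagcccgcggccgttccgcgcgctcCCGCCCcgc
PHF1: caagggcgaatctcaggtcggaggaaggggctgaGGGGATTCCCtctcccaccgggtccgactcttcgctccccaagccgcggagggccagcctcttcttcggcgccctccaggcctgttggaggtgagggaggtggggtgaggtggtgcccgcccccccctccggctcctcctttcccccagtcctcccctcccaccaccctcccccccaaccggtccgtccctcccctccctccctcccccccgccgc
KDM6B: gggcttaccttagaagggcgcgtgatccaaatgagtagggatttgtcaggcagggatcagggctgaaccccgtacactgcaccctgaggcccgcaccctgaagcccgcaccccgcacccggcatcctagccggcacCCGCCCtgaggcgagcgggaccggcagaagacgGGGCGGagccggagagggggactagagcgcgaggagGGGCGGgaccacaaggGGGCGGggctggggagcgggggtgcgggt
PHC2 held 4 GC boxes, 1 of them overlapping a CCAAT box, CBX7 held 8, of which a pair overlap each other, and KDM6B held 4. These counts belong to the windows printed. RefSeq gave a further start for PHC2, whose window held 6 GC boxes, and one for KDM6B, whose window held 0, and the KDM6B start shown lies upstream of the GENCODE 29 span. A GC box was present in 41 of the 55 member windows and in 42.639% of all 35116 windows of that length. The κB motif, searched on both strands in the form usually given for NF-κB, was in 4 of the 55 windows (PHF1, BMI1, YAF2 and KDM2B) and in 5.206% of all windows. In PHF1 it lay 216 bases before the RefSeq start, in a window that lies wholly inside the GENCODE 29 span of the gene. These matches describe the letters of the windows and say nothing of binding.

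In variant PRC1, BCOR, the corepressor that assembles with PCGF1, had 72.9, 76.2 and 74.5 CPM in untreated N108, 84.3, 88.2 and 86.5 CPM in untreated M3 and 46.9, 45.8 and 47.3 CPM in untreated WT. The 3 groups did not overlap, with M3 highest and WT lowest. BCOR was 1.6-fold higher in N108 (0.68, SE 0.05, adjusted p = 1.0e-11) and 1.85-fold higher in M3 (0.89, SE 0.05, adjusted p = 1.7e-14). Its paralog BCORL1 was higher in N108 (0.18, adjusted p = 0.017) and in M3 (0.19, adjusted p = 0.011). YAF2 was higher in both (log2 fold change 0.28 in N108 and 0.29 in M3), whereas RYBP, its paralog, was called in neither (0.17, adjusted p = 0.085 in N108 and 0.08, adjusted p = 0.4 in M3). KDM2B, which brings the PCGF1 complex to CpG islands, was within a narrow band in all groups and was called in neither (-0.023 and -0.031). In N108 left-out libraries ended the calls of YAF2 without WT untreated replicate 2 (adjusted p = 0.055) and BCORL1 without N108 untreated replicates 1 or 3 or WT untreated replicates 1 or 2 (highest adjusted p = 0.086), and in M3 that of BCORL1 without WT untreated replicate 1 (adjusted p = 0.064). Calls were gained for RYBP without N108 untreated replicate 3 (adjusted p = 0.023) in N108 and RYBP without M3 untreated replicate 3 (adjusted p = 0.029) in M3.

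Among the enzymes that oppose Polycomb, BAP1 had 78.1, 73.4 and 77.3 CPM in untreated N108, 68.1, 72.9 and 76.8 CPM in untreated M3 and 84.5, 87.6 and 87.3 CPM in untreated WT. All mutant libraries were below WT, and the mutants overlapped each other. BAP1 fell in N108 (-0.18, SE 0.048, adjusted p = 0.0032) and in M3 (-0.25, SE 0.049, adjusted p = 7.8e-05). Its partner ASXL1 fell in both (log2 fold change -0.16 in N108 and -0.18 in M3), and ASXL2 was higher in N108 (0.22, adjusted p = 0.025) and not called in M3 (0.073, adjusted p = 0.45). The call of ASXL2 in N108 ended without N108 untreated replicates 1 or 2 or WT untreated replicates 1 or 2 (highest adjusted p = 0.094).

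KDM6A (UTX), the X-linked H3K27 demethylase, had 25.8, 28.3 and 26.3 CPM in untreated N108, 27.9, 28.4 and 26.4 CPM in untreated M3 and 29.7, 30.6 and 28.2 CPM in untreated WT. The groups overlapped, and KDM6A was called lower in N108 (-0.14, SE 0.053, adjusted p = 0.038) and not in M3 (-0.1, adjusted p = 0.12). The call in N108 ended without N108 untreated replicates 1 or 3 or WT untreated replicates 1 or 2 (highest adjusted p = 0.16). KDM6B (JMJD3), the inducible H3K27 demethylase, had 60.1, 58.5 and 58.7 CPM in untreated N108, 70.7, 72.6 and 71.8 CPM in untreated M3 and 44.4, 43.7 and 50.3 CPM in untreated WT. M3 was above N108, and N108 above WT, with no overlap. KDM6B was 1.28-fold higher in N108 (0.36, SE 0.063, adjusted p = 4.1e-05) and 1.56-fold higher in M3 (0.64, SE 0.063, adjusted p = 2.2e-09).

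Of the 24 calls in N108, 15 held in every alternative tried, including PHC2, CBX6, CBX7, CBX8, PHF1, BCOR, EPOP, RING1, BAP1 and KDM6B, and of the 26 in M3, 20 did. The GC trend removed left 21 of the calls in N108 and 26 of those in M3. The calls in N108 that ended with it removed were RBBP4 (0.047, adjusted p = 0.28), MTF2 (0.095, adjusted p = 0.051) and ASXL2 (0.15, adjusted p = 0.088).

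N108 and M3 were compared directly to see whether the mutants differ. 13 of the 39 genes were called, 6 higher and 7 lower in N108, where 31.5% of all genes were called (16.4% higher and 15% lower), so the 33.3% of the members is close to the background. No call exceeded 1.5-fold. CBX7 (0.44, SE 0.052, adjusted p = 1.8e-07), EPOP (0.23, adjusted p = 0.0015), CBX2 (0.27, adjusted p = 5.0e-05) and BMI1 (0.55, adjusted p = 0.032) were higher in N108. EZH1 (-0.40, SE 0.05, adjusted p = 3.9e-07), PHC2 (-0.36, SE 0.048, adjusted p = 1.5e-06), PHC1 (-0.35, adjusted p = 3.2e-04), KDM6B (-0.28, adjusted p = 0.0011), BCOR (-0.21, adjusted p = 0.0014) and RING1 (-0.16, adjusted p = 0.0091) were lower. CBX6 and PHF1, which fell in both mutants, were not called between them, with 95% intervals of -0.073 to 0.11 and -0.16 to 0.12. The calls that ended without 1 library were EZH2 without N108 untreated replicates 2 or 3 or M3 untreated replicates 1, 2 or 3 (highest adjusted p = 0.19), RBBP4 without N108 untreated replicates 1, 2 or 3 or M3 untreated replicates 1 or 2 (highest adjusted p = 0.17), BMI1 without N108 untreated replicates 1 or 2 or M3 untreated replicate 3 (highest adjusted p = 0.11) and SCMH1 without N108 untreated replicates 1, 2 or 3 or M3 untreated replicates 1 or 2 (highest adjusted p = 0.14), and calls were gained for AEBP2 without M3 untreated replicate 3 (adjusted p = 0.0049), CBX8 without N108 untreated replicate 2 (adjusted p = 0.037) and ASXL2 without M3 untreated replicate 2 (adjusted p = 0.034). Without untreated M3 replicate 3 the split was 4 higher and 8 lower.

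With TNF, the same comparison of mutants with WT gave 21 calls in N108, 8 higher and 13 lower, or 53.8% against 46.7% of all genes (23% higher and 23.6% lower). In M3 it gave 25, 9 higher and 16 lower, or 64.1% against 54.7% (26.9% higher and 27.8% lower). The genes that led without TNF led here too. PHC2 had 205, 226 and 192 CPM in N108 with TNF, 234, 246 and 238 CPM in M3 with TNF and 107, 104 and 109.7 CPM in WT with TNF. It was higher in N108 (0.96, SE 0.049, adjusted p = 3.1e-15) and in M3 (1.16, SE 0.049, adjusted p = 2.5e-17), and no mutant library came near WT. CBX7 had 33.7, 35.2 and 34.4 CPM in N108 with TNF, 25.2, 23.7 and 24.1 CPM in M3 with TNF and 58.2, 54.4 and 58.2 CPM in WT with TNF. The groups did not overlap, and M3 was again the lowest (-1.22, SE 0.052, adjusted p = 3.4e-17), with N108 between (-0.72, SE 0.051, adjusted p = 3.6e-12).

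CBX6 had 320.3, 312 and 299.6 CPM in N108 with TNF, 281, 287 and 290.1 CPM in M3 with TNF and 564, 525 and 552 CPM in WT with TNF, and PHF1 had 33.3, 30.3 and 27.3 CPM in N108 with TNF, 28.7, 30.7 and 32.6 CPM in M3 with TNF and 48.3, 47.3 and 48.9 CPM in WT with TNF. Both genes were lower in every mutant library than in any WT library. The log2 fold change of CBX6 was -0.82 in N108 and -0.94 in M3, and that of PHF1 was -0.67 and -0.65 (adjusted p of at most 1.5e-09). BCOR had 81.4, 84.3 and 78.1 CPM in N108 with TNF, 93.3, 91.8 and 88.5 CPM in M3 with TNF and 54.8, 55.5 and 48.4 CPM in WT with TNF. All mutant libraries lay above WT, in N108 (log2 fold change 0.62, adjusted p = 6.1e-11) and in M3 (0.79, adjusted p = 2.2e-13). EPOP had 102, 106 and 94.5 CPM in N108 with TNF, 73.6, 77.9 and 81 CPM in M3 with TNF and 74.6, 70.8 and 73.9 CPM in WT with TNF. It was called in N108 (0.47, SE 0.053, adjusted p = 5.2e-08) and not in M3 (0.085, adjusted p = 0.19), whose libraries overlapped WT.

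Of the 6 core PRC2 genes with TNF, 1 was higher and 3 were lower in N108 than in WT, or 66.7% against 46.7% of all genes. In M3 2 were higher and 4 lower than in WT, or 100% against 54.7%. SUZ12 had 73.9, 70.4 and 86.6 CPM in N108 with TNF, 81.2, 85.3 and 79.3 CPM in M3 with TNF and 105, 109.9 and 112 CPM in WT with TNF. WT was above all mutant libraries by a wide margin, and SUZ12 fell in N108 (-0.50, SE 0.087, adjusted p = 1.2e-04) and in M3 (-0.41, SE 0.087, adjusted p = 5.8e-04). EED had 25.4, 23.5 and 24.4 CPM in N108 with TNF, 25, 24.1 and 25.4 CPM in M3 with TNF and 26.4, 27.1 and 29.4 CPM in WT with TNF. All mutant libraries lay below WT, the lowest WT library by little. EED was lower in N108 (-0.18, adjusted p = 0.011) and in M3 (-0.15, adjusted p = 0.022). The call in N108 ended without WT TNF replicate 3 (adjusted p = 0.088) and that in M3 without M3 TNF replicates 1 or 2 or WT TNF replicate 3 (highest adjusted p = 0.15), and with the GC trend removed the value in N108 was -0.047, adjusted p = 0.49. EZH2 had 80.1, 79 and 79.3 CPM in N108 with TNF, 74.9, 72.1 and 75.8 CPM in M3 with TNF and 86.7, 80.6 and 80.5 CPM in WT with TNF. Every mutant library lay below WT, and M3 was called (-0.15, adjusted p = 0.0052) while N108 was not (-0.055, adjusted p = 0.33). EZH1 had 31.8, 32.1 and 31.5 CPM in N108 with TNF, 41.6, 41.2 and 39.6 CPM in M3 with TNF and 28.6, 27.9 and 25.1 CPM in WT with TNF. The order M3, N108, WT held in every library, and EZH1 was higher than WT in N108 (0.23, adjusted p = 6.7e-04) and in M3 (0.59, adjusted p = 1.4e-10).

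BMI1 had 25.1, 22.3 and 27.1 CPM in N108 with TNF, 18.1, 22.6 and 20.8 CPM in M3 with TNF and 38.6, 41.2 and 42.3 CPM in WT with TNF. Both mutants were far below WT with no overlap, in N108 (log2 fold change -0.71, SE 0.18, adjusted p = 0.0049) and in M3 (-0.99, SE 0.18, adjusted p = 3.7e-04). RNF2 had 41.2, 43.6 and 47.2 CPM in N108 with TNF, 45.1, 48.4 and 43.3 CPM in M3 with TNF and 41.4, 43.4 and 47.4 CPM in WT with TNF, and RING1 had 58.2, 61.5 and 55.4 CPM in N108 with TNF, 60.3, 63.2 and 64.6 CPM in M3 with TNF and 60.6, 60.7 and 63.2 CPM in WT with TNF. These groups overlapped or nearly touched, and neither ligase was called in N108 (-0.0035 and -0.076) or M3 (0.047 and 0.028), though in N108 a call was gained for RING1 without N108 TNF replicate 2 (adjusted p = 0.0495). BAP1 had 81.3, 83.8 and 75.6 CPM in N108 with TNF, 74.5, 74.5 and 72 CPM in M3 with TNF and 87.6, 86 and 87.8 CPM in WT with TNF. WT was above all mutant libraries, in N108 (log2 fold change -0.12, adjusted p = 0.045) and in M3 (-0.24, adjusted p = 1.2e-04). The call of BAP1 in N108 ended without N108 TNF replicates 1 or 3 or WT TNF replicates 1, 2 or 3 (highest adjusted p = 0.22). KDM6A had 28.4, 27.6 and 27.5 CPM in N108 with TNF, 31.7, 31.5 and 29 CPM in M3 with TNF and 31.4, 33.1 and 32.8 CPM in WT with TNF. N108 was below both other lines in every library, and M3 overlapped WT. KDM6A was lower in N108 (-0.22, adjusted p = 0.0013) and not called in M3 (-0.077, adjusted p = 0.23). KDM6B had 68.8, 81.9 and 70.7 CPM in N108 with TNF, 76.7, 78.2 and 74.1 CPM in M3 with TNF and 54.8, 52.1 and 46.3 CPM in WT with TNF. All mutant libraries exceeded WT, in N108 (log2 fold change 0.53, SE 0.064, adjusted p = 1.1e-07) and in M3 (0.58, SE 0.064, adjusted p = 1.3e-08).

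Of the other members with TNF, CBX8 was lower than in WT in N108 (-0.35, adjusted p = 4.3e-06) and in M3 (-0.58, adjusted p = 4.5e-10), as were PCGF3 (-0.19 and -0.24), PCGF5 (-0.46 and -0.48) and RBBP7 (-0.19 and -0.13). SCMH1 (0.37 and 0.17) and BCORL1 (0.33 and 0.24) were higher in both. In N108, CBX2 was higher (0.32, adjusted p = 3.0e-06) and PCGF6 lower (-0.19, adjusted p = 0.04), and neither was called in M3. In M3, PHC1 (0.38, adjusted p = 6.4e-05), AEBP2 (0.29, adjusted p = 0.0021) and RBBP4 (0.20, adjusted p = 5.3e-04) were higher and PHF19 (-0.23), JARID2 (-0.18), ASXL1 (-0.12) and KDM2B (-0.10) lower, and these were not called in N108. A call in N108 and not in M3, or the reverse, does not show that the mutants differ. The direct comparison that follows names only some of these genes. Left-out libraries ended the call of PCGF6 without N108 TNF replicate 2 or WT TNF replicates 2 or 3 (highest adjusted p = 0.29) in N108 and the calls of RBBP7 without M3 TNF replicate 2 or WT TNF replicate 3 (highest adjusted p = 0.062), SCMH1 without M3 TNF replicate 1 or WT TNF replicates 1 or 2 (highest adjusted p = 0.11), KDM2B without M3 TNF replicates 2 or 3 or WT TNF replicates 1, 2 or 3 (highest adjusted p = 0.19) and ASXL1 without M3 TNF replicates 2 or 3 or WT TNF replicates 1 or 2 (highest adjusted p = 0.18) in M3. In neither mutant were PHC3, SCML2, RYBP, YAF2, MTF2, PCGF1, PCGF2 and ASXL2 called with log2 fold changes of -0.059 to 0.18 in N108 and -0.16 to 0.18 in M3. Calls were gained in N108 for PHF19 without N108 TNF replicate 2 (adjusted p = 0.015), PCGF2 without N108 TNF replicate 3 (adjusted p = 0.011) and ASXL2 without N108 TNF replicate 2 or WT TNF replicate 2 (lowest adjusted p = 0.018) and in M3 for PCGF1 without WT TNF replicate 1 (adjusted p = 0.038), PHC3 without WT TNF replicate 2 (adjusted p = 0.049) and ASXL2 without M3 TNF replicate 3 or WT TNF replicate 2 (lowest adjusted p = 0.016).

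Between the mutants under TNF 16 genes were called, 8 higher and 8 lower in N108, or 41.0% against 37.3% of all genes (20% higher and 17.3% lower). CBX7 (0.50, adjusted p = 2.1e-08), EPOP (0.38, adjusted p = 2.3e-06), CBX2 (0.38, adjusted p = 3.6e-07) and JARID2 (0.20, adjusted p = 8.7e-04) were among the higher ones and EZH1 (-0.36, adjusted p = 2.2e-06), AEBP2 (-0.33, adjusted p = 0.0012), PHC1 (-0.30, adjusted p = 0.0012) and PHC2 (-0.21, adjusted p = 0.0012) among the lower ones. The calls that ended without 1 library were PCGF6 without N108 TNF replicate 2 or M3 TNF replicate 3 (highest adjusted p = 0.07), CBX6 without N108 TNF replicates 1 or 2 or M3 TNF replicates 1, 2 or 3 (highest adjusted p = 0.15), SCMH1 without N108 TNF replicate 2 or M3 TNF replicate 3 (highest adjusted p = 0.11), BAP1 without N108 TNF replicates 1 or 2 or M3 TNF replicates 1, 2 or 3 (highest adjusted p = 0.2) and KDM6A without N108 TNF replicates 2 or 3 or M3 TNF replicates 1 or 2 (highest adjusted p = 0.13). With the GC trend removed 12 of the 16 calls were kept, and those that ended were CBX6 (-1.3e-04, adjusted p = 0.998), CBX8 (0.11, adjusted p = 0.065), BAP1 (0.016, adjusted p = 0.76) and KDM6A (-0.048, adjusted p = 0.43). Calls were gained for PHF19 without N108 TNF replicate 3 (adjusted p = 0.014), RING1 without N108 TNF replicate 2 or M3 TNF replicate 1 (lowest adjusted p = 0.015) and SCML2 without N108 TNF replicates 1 or 3 or M3 TNF replicate 3 (lowest adjusted p = 0.024), and without M3 with TNF replicate 3 the split was 5 higher and 8 lower.

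The 40 min of TNF changed few of these genes. In N108, 1 of 39 was called, beside 1.2% of all genes tested (1.1% higher and 0.0998% lower). In M3 0 were called, beside 1.38% of all genes (1.1% higher and 0.278% lower), and in WT 2 were called, 1 higher and 1 lower, beside 5.18% (2.03% higher and 3.15% lower). In M3, edgeR gave an unadjusted p under 0.05 for 2 genes that were higher and 2 that were lower, and DESeq2 called 0. In N108, KDM6B had 68.8, 81.9 and 70.7 CPM with TNF, against 60.1, 58.5 and 58.7 CPM untreated. The groups did not overlap, and replicate 2 with TNF was the highest library. KDM6B rose in N108 (0.32, SE 0.063, adjusted p = 0.0036), but without N108 with TNF replicate 2 the adjusted p was 0.052. KDM6B was not called in M3 (0.09, adjusted p = 0.72) or WT (0.15, adjusted p = 0.21), and with the GC trend removed it was called in N108 (0.21, adjusted p = 0.037) and in WT (0.23, adjusted p = 0.0057). PCGF6, not called in N108 (-0.21, adjusted p = 0.2), became a call without N108 TNF replicate 3 (adjusted p = 0.041).

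In WT, EZH1 had 28.6, 27.9 and 25.1 CPM with TNF, against 31.9, 30.8 and 31.7 CPM untreated, without overlap. EZH1 fell in WT (-0.21, SE 0.051, adjusted p = 0.012), a call that ended without WT untreated replicate 1 or WT TNF replicate 3 (highest adjusted p = 0.17). In N108 (0.0022, adjusted p = 0.99) and M3 (-0.041, adjusted p = 0.86) it was not called, and the difference in response was not called for N108 against WT (0.21, adjusted p = 0.096) or M3 against WT (0.17, adjusted p = 0.46). BCOR had 54.8, 55.5 and 48.4 CPM in WT with TNF, against 46.9, 45.8 and 47.3 CPM in untreated WT, and the third library with TNF lay close to the untreated ones. BCOR rose in WT (0.18, SE 0.05, adjusted p = 0.032), and the call ended without WT untreated replicates 1, 2 or 3 or WT TNF replicates 1 or 2 (highest adjusted p = 0.18). In N108 (0.12, adjusted p = 0.25) and M3 (0.079, adjusted p = 0.67) it was not called, and the difference in response was -0.057 for N108 against WT and -0.10 for M3 against WT, neither of them called.

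**Figure D4:**
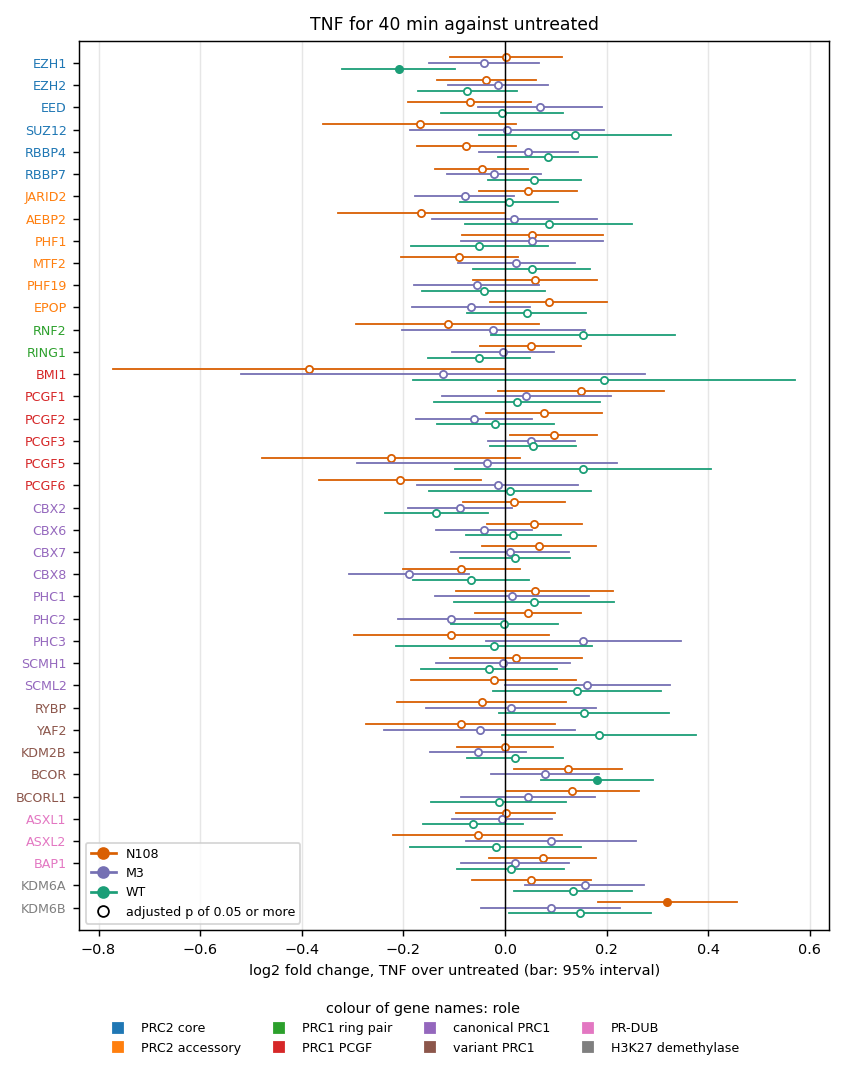
Log2 fold change of the 39 genes, TNF over untreated, in N108, M3 and WT, with 95% intervals (3 libraries a group). Filled points had an adjusted p under 0.05, which 3 points have (KDM6B in N108, EZH1 and BCOR in WT); most intervals cross 0.

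In N108 the fold changes of the 39 genes with TNF followed the GC content of their transcripts. Spearman's rho across the 39 genes was 0.74, as a description over genes that share libraries. Across all genes tested with a GC value it was 0.50. For the 39 genes it was -0.11 once the GC trend of each library was removed. That removal fits and subtracts the trend over the genes tested, so a low rho follows from the method. In WT rho was -0.47 for the 39 genes and -0.30 for all genes. BMI1, PCGF5 and SUZ12, with transcript GC contents of 40.1%, 35.1% and 38.1%, had log2 fold changes of -0.39, -0.22 and -0.17 in N108, none of them called, and -0.28, -0.047 and -0.039 with the trend removed. KDM6B, at 62.5% GC, kept a positive value under both.

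**Figure D5:**
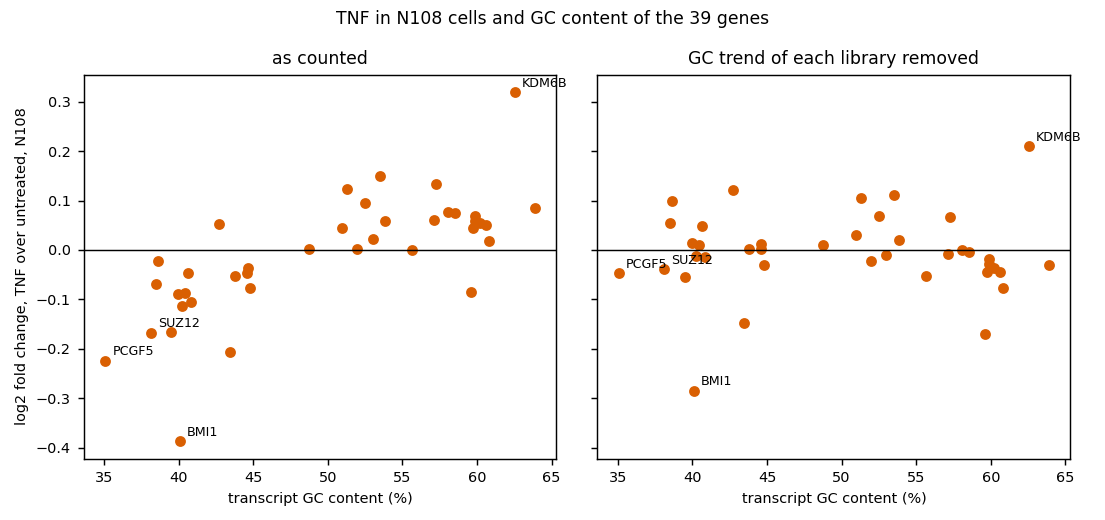
Log2 fold change with TNF in N108 against transcript GC content (%) for the 39 genes, as counted and with the GC trend of each library removed. The correction takes out the slope by its design, and KDM6B stays the highest and BMI1 the lowest in the corrected values.

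The response to TNF was also compared between lines as an interaction. None of the 39 genes was called for N108 against WT (2.62% of all genes), M3 against WT (0.315%) or N108 against M3 (0.0788%) in edgeR, and DESeq2 called 0 as well. At an unadjusted p under 0.05 there were 2 higher and 8 lower for N108 against WT, 1 higher and 0 lower for M3 against WT, and 2 higher and 0 lower for N108 against M3. The widest value was that of BMI1 for N108 against WT (-0.58, adjusted p = 0.2), followed by PCGF5 (-0.38, adjusted p = 0.2) and SUZ12 (-0.30, adjusted p = 0.16). SUZ12 became a call without N108 TNF replicate 3 (adjusted p = 0.034). With the GC trend removed the 3 genes stood at -0.42, -0.14 and -0.11. KDM6B was not called for N108 against WT (0.17, adjusted p = 0.27), so its rise was not shown to differ between these lines.

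Other subunits of the same complexes were described by a list of 31 genes, of which 28 were tested. In untreated N108 8 were higher and 8 lower than in WT, or 57.1%, and in M3 8 were higher and 10 lower, or 64.3%, beside the backgrounds of 42.4% and 52.9%. SCML1, an SCM-related protein, averaged 10.6 CPM in untreated N108, 7.06 CPM in untreated M3 and 25.6 CPM in untreated WT. It fell in N108 (-1.27, adjusted p = 2.4e-14) and in M3 (-1.86, adjusted p = 9.3e-18). TFDP1, the dimer partner of E2F6 in the PCGF6 complex and of other E2F proteins, fell in N108 (-0.30, adjusted p = 6.9e-07) and M3 (-0.47, adjusted p = 9.6e-11). MAX, which binds E-boxes in the PCGF6 complex and with MYC, was higher in N108 (0.31, adjusted p = 2.9e-05) and M3 (0.53, adjusted p = 2.1e-09). With TNF the shares of the list were close to the backgrounds. In N108 6 were higher and 7 lower than in WT, or 46.4% against 46.7% of all genes. In M3 6 were higher and 10 lower, or 57.1% against 54.7%.

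Of 25 Trithorax-group, H3K27 acetylation and H2A deubiquitylation genes, all tested, 3 were higher and 5 lower in untreated N108 than in WT, and 5 were higher and 6 lower in M3, shares of 32.0% and 44.0% that are below the backgrounds of 42.4% and 52.9%. The SWI/SNF subunit SMARCC1 (0.27, adjusted p = 1.8e-05 in N108 and 0.39, adjusted p = 2.1e-08 in M3) and the ATPase SMARCA2 (0.42, adjusted p = 2.2e-06 and 0.35, adjusted p = 2.6e-05) were higher. The H3K4 methyltransferase SETD1A (-0.26, adjusted p = 2.1e-04 and -0.19, adjusted p = 0.0027) and the SWI/SNF core subunit SMARCB1 (-0.23, adjusted p = 2.2e-04 and -0.22, adjusted p = 2.6e-04) were lower. With TNF 9 of the list were higher and 3 lower in N108 than in WT, or 48% against 46.7% of all genes. In M3 with TNF 6 were higher and 4 lower, or 40% against 54.7%.

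Known Polycomb target genes outside the HOX clusters, 51 of which 31 passed the count filter, were called in both directions. In untreated N108 15 were higher and 4 lower than in WT, or 61.3% against 42.4% of all genes (20.9% higher and 21.6% lower). The median log2 fold change was 0.28 over the 31 that passed. In untreated M3 9 were higher and 8 lower, or 54.8% against 52.9% (26.1% higher and 26.8% lower), with a median of 0.081. Untreated N108 against M3 gave 15 higher and 4 lower (61.3% against 31.5%). With TNF, N108 had 17 higher and 4 lower than WT (67.7% against 46.7%). M3 with TNF had 4 higher and 9 lower (41.9% against 54.7%), with a median of -0.047. A target that is silent in every group cannot pass the filter, so the count covers those with transcripts in some group. A target can also pass through the 1 group where it is high, and it then tends to count as higher there. The split into higher and lower can therefore follow in part from the filter, and that part was not tested. MSX1, a homeobox repressor, averaged 44.9 CPM in untreated N108, 25 CPM in untreated M3 and 56.3 CPM in untreated WT, and fell in N108 (-0.33, adjusted p = 1.1e-04) and in M3 (-1.17, adjusted p = 1.2e-14). Its paralog MSX2 fell in M3 (-1.27, adjusted p = 7.4e-13) and was not called in N108 (0.17, adjusted p = 0.082). The neural transcription factors ZIC2 (0.57, adjusted p = 1.2e-09 in N108 and 0.31, adjusted p = 2.6e-05 in M3) and SIX3 (1.01, adjusted p = 2.1e-06 and 1.38, adjusted p = 4.0e-09) were higher in both mutants. MSX1 also rose with TNF in N108 (0.36, adjusted p = 8.9e-04), M3 (0.45, adjusted p = 5.3e-05) and WT (0.25, adjusted p = 0.016), the WT call ending without WT untreated replicates 1 or 2 or WT TNF replicate 3 (highest adjusted p = 0.16).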

How the data were processed

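Total RNA of 18 HCT116 libraries was sequenced in paired-end mode (reads of 50 bp), as the labels' protocols state. The authors deposited raw counts per Ensembl gene. Trim Galore 0.6.6, STAR 2.7.8, featureCounts, Subread 2.0.1, DESeq2 1.38.3 and hg38 are named in the submitters' processing notes, with no role or order. No source used here gives the annotation release or the strand setting. A normalised table was not used.

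Members were matched by symbol (99.751% of genes had one). Genes were filtered with filterByExpr (minimum count 10), leaving 19038, scaled by TMM and fitted in one edgeR 4.0.16 quasi-likelihood model of 6 group means (limma 3.58.1, R 4.3.3, 12 residual degrees of freedom). P-values are two-sided and Benjamini-Hochberg adjusted over all genes tested, with a threshold of 0.05. Intervals are 95% intervals from the standard error and the 12 residual degrees of freedom. The test also borrows information between genes, so an interval can be wider than the test implies. It can therefore include no change where the unadjusted p is under 0.05. CPM per kb used GENCODE 29 union exons. The members and gene lists were chosen with earlier results of these data known. Values in every library are given for EZH1, EZH2, EED, SUZ12, RNF2, RING1, BMI1, BAP1, KDM6A and KDM6B, the 6 largest non-overlapping calls of each mutant against untreated WT, and calls with TNF. Up to 4 genes of smallest p are named per list, and 1 of them is not reported here. On simulated counts for N108 against WT, 93 of 100 genes changed by 0.5 on the log2 scale were recovered, and 92 of 100 for TNF in N108. The simulated libraries had no GC trend, and genes of like level had the same spread. Only genes averaging at least 1 CPM were changed, so these rates do not give the power in the real libraries. Alternatives were no filter and a stricter filter, DESeq2 size factors, DESeq2 1.42.0, only the compared groups, a replicate block, GC trends removed, each library left out and, chosen after seeing the data, the 3 libraries of strongest GC trend left out.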

Additional observations from a re-analysis of the deposited data

Results flagged for a closer look

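None of the 39 members was called for a difference between lines in the response to TNF in edgeR. In the related lists 3 genes were called, for N108 against WT, and they were singled out after their values were seen. The calls were 2 of 28 tested partner subunits (7.14%) and 1 of 31 tested target genes (3.23%), beside 2.62% of all genes. None of the 25 Trithorax-group and related genes was called. For FBRSL1, an AUTS2-related subunit of variant PRC1, the difference of log2 fold changes was 0.34 (adjusted p = 0.018), and with the GC trend removed it was 0.072, adjusted p = 0.56. For MBD6, a partner of PR-DUB, it was 0.33 (adjusted p = 0.042), against 0.16, adjusted p = 0.41 with the trend removed. For PAX2, a developmental Polycomb target, it was 0.36 (adjusted p = 0.032), against 0.18, adjusted p = 0.36. The calls ended without 1 library in several cases: FBRSL1 without N108 untreated replicate 2 or N108 TNF replicate 2 or WT untreated replicate 3 or WT TNF replicate 3 (highest adjusted p = 0.067), MBD6 without N108 untreated replicates 1 or 2 or N108 TNF replicates 1 or 2 or WT untreated replicates 1, 2 or 3 or WT TNF replicates 1 or 3 (highest adjusted p = 0.15) and PAX2 without N108 untreated replicates 2 or 3 or N108 TNF replicates 1 or 2 or WT untreated replicates 1, 2 or 3 or WT TNF replicate 3 (highest adjusted p = 0.11).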

How the results depend on the processing

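Over the member comparisons called, 1848 of 2048 values under an alternative kept direction and call, 197 lost the call and 3 changed sign. Of 6142 values of comparisons not called, 163 became calls. The sign changes were CBX6 for N108 against M3 with TNF, at -1.3e-04 with the GC trend removed and -4.7e-04 with that and the replicate block, and EED for N108 against WT with TNF, at 0.010 without the 3 libraries of strongest GC trend and with the trend removed. Members called for TNF in WT numbered 1 with no low-count filter, and 4 with the GC trend removed, with it removed beside the replicate block, without those 3 libraries, and without them and with the trend removed. For TNF in N108 the last 2 settings gave 0, for TNF in M3 the last gave 1, and for the interaction of N108 and WT there were 2 with no filter and 3 without those 3 libraries. Leaving out 1 library gave 0 to 1 for TNF in WT, 0 to 2 for TNF in N108 and 0 to 1 for the interaction of N108 and WT. The cause of these changes was not tested.

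Over all genes, the count called ranged from 432 to 1956 under the alternatives for TNF in WT (987 as reported), 126 to 1333 for TNF in N108 (228), 37 to 2430 for the interaction of N108 and WT (498), 14 to 342 for that of M3 and WT (60) and 7 to 650 for that of N108 and M3 (15). Same-numbered libraries did not deviate together (45 pairs, correlations of -0.15 to 0.10, 1 above 0.1, own number best in 31 of 90), and the main fit used no pairing. GC trends of single libraries could mask a shared deviation, so this check cannot tell whether same-numbered libraries belong together. With the replicate block the members called were 23 and 26 for untreated N108 and M3 against WT, 21 and 25 with TNF, 11 and 15 for N108 against M3 untreated and with TNF, 1, 0 and 2 for TNF in N108, M3 and WT, and 0 for the interactions. Among member calls that leaving out 1 library ended, BMI1 for untreated N108 against M3 had the largest log2 fold change, 0.55.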
